A study of Canis lupus familiaris with 21 samples.

Results

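Tumor cell-rich areas of stage 2 canine cutaneous histiocytoma (group 2a, 5 samples) were compared with stage 1 tumors (group 1, 5 samples), 10 of the 21 samples of the series. Of 21399 genes, the 11200 that reached 10 counts in 5 or more of those samples were tested and described by pathway and function. Canine cutaneous histiocytoma (CCH) is a skin tumor of young dogs that is thought to arise from Langerhans cells and usually regresses spontaneously. Stage 1 is defined by the absence of lymphocytes, and stage 2 by lymphocytes that enter from the base and sides of the tumor. The remaining lymphocyte-rich areas, 6 from stage 2 (group 2b, of which 4 were pools of several dogs) and 5 from stage 3 (group 3), serve only as reference levels. RNA came from formalin-fixed, paraffin-embedded archive tissue and was read near the 3′ end of transcripts (QuantSeq 3′ FWD).

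Each sample of groups 1 and 2a was the tumor of 1 privately owned dog, with no treatment or genotype in the labels. The group 2a tissue had been punched out of the paraffin blocks under microscopic selection, so that a stage 2 sample is an area of a tumor that also held lymphocyte-rich areas. The labelled ages were 0.5 to 5.0 years for 4 dogs of group 1, with 1 dog not aged, and 0.6 to 3.0 years for the 5 dogs of group 2a. The total count was between 2498742 and 3559404 in group 1 and between 2113393 and 2877921 in group 2a (exact permutation test, 2-sided, p = 0.0714). RNA quality differed between the groups. The DV200, the percentage of RNA fragments longer than a set length, averaged 68.5% ± 2.46 (SD) over the 5 stage 1 samples against 73.7% ± 2.69 (SD) over the 5 stage 2 samples (p = 0.0159, exact permutation test, 2-sided). Stage and RNA quality therefore cannot be told apart by the design. In tissue samples of this kind, fewer cells of a type and less RNA per cell cannot be told apart either.

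Langerhans cells are antigen-presenting cells of the epidermis, held between keratinocytes by cadherin junctions. A dividing tumor cell packs its DNA with the chromatin machinery, removes introns in the spliceosome, builds ribosomes in the nucleolus and separates chromosomes with the centrosome and the kinetochore. These functions, the cytoskeleton, protein folding, cell junctions and immune pathways were each followed by a list of genes, 42 pathway lists and 14 lists of cell type markers in all. The lists were drawn up with earlier results of these data known, so their counts are descriptions and not independent evidence of a direction.

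Lists of nuclear functions stood out on the higher side. In group 2a the chromatin, splicing, ribosome assembly, DNA repair, centrosome and mitosis lists each held many members with higher counts than in group 1 and few with lower counts. Keratinocyte markers, cell junction genes and a smaller share of ribosomal protein genes stood on the other side. The keratinocyte and ribosomal protein counts depended on the samples chosen, and the ribosomal protein counts also on the normalization, as given below. Immune pathway lists held up to 17.1% of members higher at an unadjusted p of at most 0.05, beside 9.54% of all genes. On the lower side they held up to 12.5%, beside 8.37%. The test, edgeR's quasi-likelihood test with Benjamini-Hochberg adjustment over 11200 genes, called 44 genes with an adjusted p of at most 0.05 and a log2 fold change (log2FC, group 2a over group 1) of at least 1 in size. Of these, 40 rose in group 2a (0.357% of the genes tested) and 4 fell (0.0357%). The smallest adjusted p was 0.0334. A wider count of genes at an unadjusted p of at most 0.05 held 1068 genes with higher values in group 2a (9.54%) and 937 with lower values (8.37%). The 5 values of a group lay entirely above those of the other for 393 genes in group 2a (3.51%) and for 240 in group 1 (2.14%). The median log2FC of all genes was -0.02.

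The 44 calls were sensitive to single samples. With edgeR, 0 genes were called when group 1 replicate 1, 2, 3 or 5, or group 2a replicate 2, 3, 4 or 5, was left out, while 1694 to 1873 genes had an unadjusted p of at most 0.05 in those fits. With the DV200 as a covariate, edgeR called 0 genes, with 976 at an unadjusted p of at most 0.05. The DESeq2 test on the same 10 samples called 186 genes higher and 78 lower, and these included all 44.

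**Figure D1:**
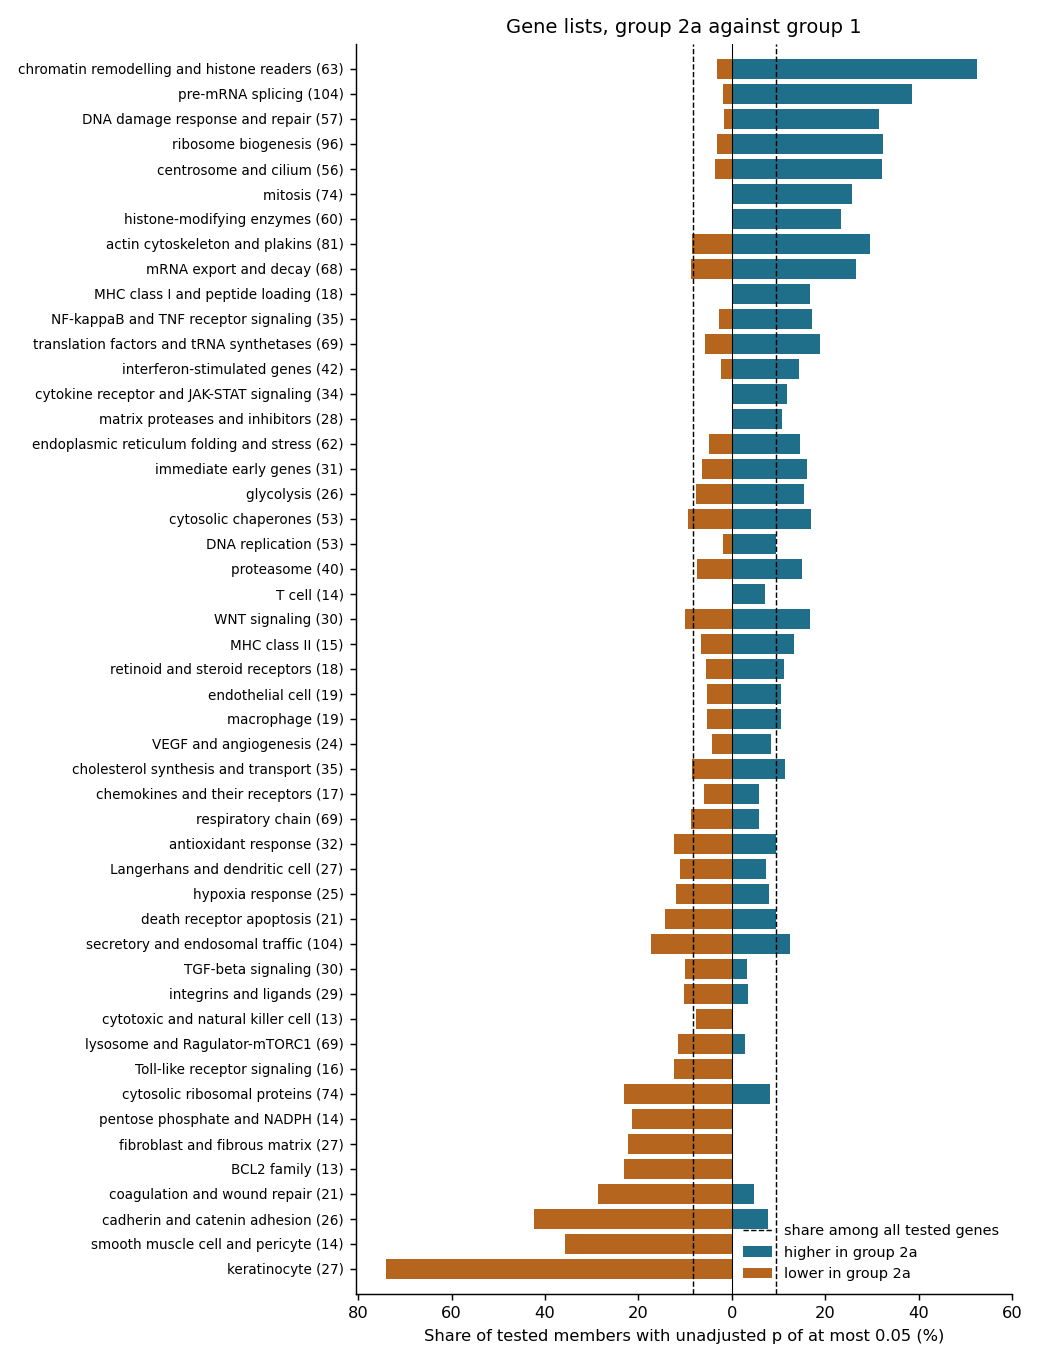
Share of the tested members of each list (number tested in brackets, lists reported here with at least 10) that had an unadjusted p of at most 0.05, in percent, with genes higher in group 2a to the right and lower to the left; dashed lines give the shares among all tested genes, 9.54% and 8.37%. The chromatin list reached 52.4% on the higher side and the keratinocyte list 74.1% on the lower side.

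Chromatin remodelling and histone readers gave the highest share of any list in the higher direction. These proteins slide or replace nucleosomes and read histone marks. Of 63 members tested, 33 had an unadjusted p of at most 0.05 with higher values in group 2a (52.4%) and 2 with lower values, and in 20 the groups did not overlap with group 2a above (31.7%). The median log2FC of the list was 0.44. Called genes were BAZ1B, ARID5B, SET, UBN2 and SMARCA2, and ATRX followed with a log2FC of 1.18 and an adjusted p of 0.0501 in edgeR.

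SET, a histone chaperone and inhibitor of the phosphatase PP2A, had normalized counts of 91.7, 26.2, 70.1, 85.0 and 40.4 in group 1 and 174, 250, 229, 209 and 215 in group 2a. All group 2a samples were above all group 1 samples, and replicate 2 was the lowest of group 1. The log2FC of SET was 1.78 ± 0.30 (SE; edgeR adjusted p = 0.0335). UBN2, a subunit of the HIRA complex that deposits histone H3.3, had 21.7, 16.9, 25.5, 12.6 and 7.65 in group 1 and 51.0, 68.8, 41.1, 88.9 and 57.1 in group 2a. Its log2FC was 1.86 ± 0.35 (SE; edgeR adjusted p = 0.0435). ARID5B, a DNA-binding partner of a histone demethylase, rose with a log2FC of 1.72 and SMARCA2, the ATPase of SWI/SNF remodelling complexes, with 1.69. BAZ1B, a bromodomain protein of the WICH remodelling complex, rose with 1.15, from 136.6 ± 29.4 to 302 ± 56.1 normalized counts (SD, n = 5 each).

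Histone-modifying enzymes showed the same side with a smaller share. Of 60 members, 14 had an unadjusted p of at most 0.05 with higher values in group 2a (23.3%) and 0 with lower values. Called genes were SETD2, which places the H3K36 trimethyl mark on transcribed genes (log2FC 1.43), and BOD1L1, a protein that protects stalled replication forks (1.12). SETD5 had an adjusted p of 0.0451 in edgeR with a log2FC of 0.86, under the threshold of 1. The value of ASH1L, a histone methyltransferase, was 0.78 with an adjusted p of 0.0501. SETD2 ran from 19.7 to 61.4 normalized counts in group 1 and from 100.2 to 142.7 in group 2a, so that the groups were well apart.

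Pre-mRNA splicing genes formed the largest of the nuclear lists. Of 104 members, 40 had an unadjusted p of at most 0.05 with higher values in group 2a (38.5%) and 2 with lower values, and the median log2FC was 0.23. NKTR and PPIG, nuclear cyclophilins with serine-arginine domains, rose with log2FC of 1.24 and 1.13. PUF60, which helps recognize the 3′ splice site, rose with 1.31, and CWC15, a spliceosome component, with 1.22. PUF60 and PLEC lie near each other on chromosome 13, PUF60 from 38119856 to 38132044 and PLEC from 38203929 to 38236330 in the assembly UU_Cfam_GSD_1.0.

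HNRNPC, which coats nascent transcripts, was counted at a low level. Its normalized counts were 10.4, 3.74, 10, 9.45 and 6.56 in group 1 and 33.4, 21.9, 35.6, 30.4 and 27.1 in group 2a. Every group 2a sample was above every group 1 sample. The log2FC of HNRNPC was 1.87 ± 0.35 (SE; edgeR adjusted p = 0.0435). HNRNPC, SET, HSP90AB1 and the ribosomal protein genes belong to families with near-identical copies in mammalian genomes. How reads matching several copies were counted is not given in the sources used here, so the values of such genes are uncertain.

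Ribosome biogenesis, the assembly of ribosomes in the nucleolus, held 96 tested members. Of these, 31 had an unadjusted p of at most 0.05 with higher values in group 2a (32.3%) and 3 with lower values, with a median log2FC of 0.25. NOP14, a factor of the small subunit, rose with a log2FC of 1.2, and FTSJ3, a methyltransferase that acts on ribosomal precursor RNA, with 1.22. DDX52, an RNA helicase, had normalized counts of 7.56, 10.3, 2.73, 12.6 and 10.9 in group 1 and 36.2, 39.6, 37.8, 31.6 and 30.0 in group 2a. The group 2a values of DDX52 lay close together and well above group 1, with a log2FC of 1.98 ± 0.38 (SE; edgeR adjusted p = 0.0451). The helicase DDX55 had a log2FC of 0.78 and an adjusted p of 0.0508.

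Cytosolic ribosomal proteins, the products that this assembly line uses, pointed the other way. Of 74 members, 17 had an unadjusted p of at most 0.05 with lower values in group 2a (23.0%) and 6 with higher values, 0 were called by edgeR, and the median log2FC was -0.20. RPL31 ran from 4174 to 7317 normalized counts in group 1 and from 2473 to 3513 in group 2a, without overlap (log2FC -0.81, edgeR adjusted p = 0.0591). RPL23 had a log2FC of -0.56 and RPS29 of -0.55. RPL4 had 1.64 in the opposite direction, at a level of 19.7 to 121.9 in group 1, far below the other members named. This list moved with the normalization, the test and the samples chosen. With the total count and no factors, 11 members were higher and 10 lower. Upper-quartile factors gave 6 higher and 14 lower, and DESeq2 gave 6 higher and 24 lower. Leaving out 1 sample gave 8 to 28 members lower, and without group 1 replicates 1 and 4, the 2 samples highest in keratinocyte markers, 11 members were higher and 6 lower. In the fit with the DV200 as a covariate, 1 of the 74 was higher and 1 lower (1.35% each). Among all genes, the shares at an unadjusted p of at most 0.05 differed by count level. From the lowest to the highest of 5 equal classes, the lower share went from 4.2% to 14.5% and the higher share from 6.83% to 11.3%. The part of count level in the ribosomal protein list was not tested.

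**Figure D2:**
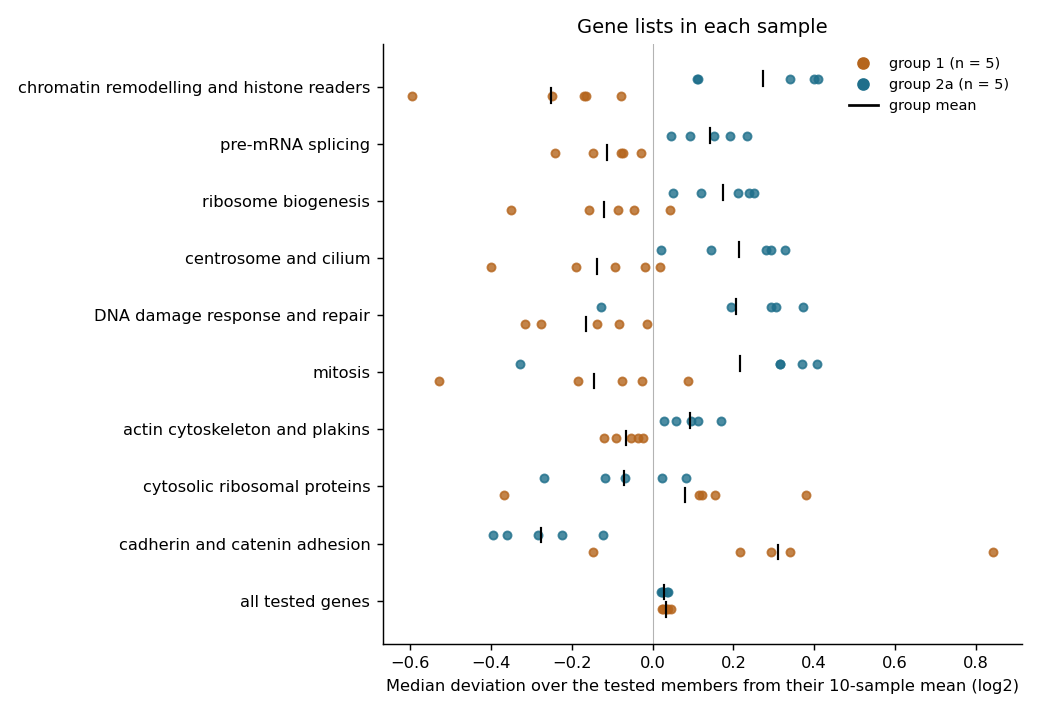
Median deviation of the tested members of a list from their mean over the 10 samples, on the log2 scale, for each sample, with group means as black bars and all tested genes in the bottom row. The chromatin, splicing, ribosome biogenesis, centrosome and actin lists shown had all 5 group 2a samples above all 5 group 1 samples, while group 2a replicate 1 lay at -0.33 for mitosis and the other 4 between 0.32 and 0.41.

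Mitosis genes were higher in 4 of the 5 group 2a samples. Of 74 members, 19 had an unadjusted p of at most 0.05 with higher values in group 2a (25.7%) and 0 with lower values, and the median log2FC was 0.39. CENPF and CENPE, which act at the kinetochore, rose with log2FC of 1.49 and 1.43. SMC4, the condensin subunit that compacts chromosomes, rose with 1.06, and CIP2A, an inhibitor of PP2A, with 1.31. CIP2A went from 42.4 ± 5.92 to 105 ± 18.7 normalized counts (SD, n = 5 each), and CENPF from 181 ± 51.8 to 506 ± 171. MKI67, the proliferation marker Ki-67, came next by p with a log2FC of 0.87 and an adjusted p of 0.0512 in edgeR. Its values were 168.5 to 228.6 in group 1 and 219 to 414 in group 2a. Over the whole list, the median deviation was -0.33 in group 2a replicate 1, below 4 of the 5 group 1 samples, and -0.53 in group 1 replicate 4.

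Without group 2a replicate 1, 26 genes were called higher and 3 lower by edgeR, against 40 and 4 with all samples. Without group 1 replicate 4, 68 were called higher and 8 lower. Across the fits that left out 1 sample, the number of mitosis members at an unadjusted p of at most 0.05 with higher values was between 16 and 27.

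DNA replication genes were counted apart from mitosis. Of 53 members, 5 had an unadjusted p of at most 0.05 with higher values (9.43%), near the 9.54% of all genes. On the lower side there was 1 (1.89%), beside 8.37% of all genes. The median log2FC was 0.14, and 38 of the 53 were above 0 (71.7%, beside 48.7% of all genes). ATAD5, which unloads the sliding clamp, had a log2FC of 1.42 with an adjusted p of 0.0501, and CLSPN, a fork checkpoint adaptor, had 1.12. No test compared the mitosis and replication lists.

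Centrosome and cilium genes held 18 of 56 members at an unadjusted p of at most 0.05 with higher values (32.1%) and 2 with lower values. CEP295, required for the conversion of centrioles to centrosomes, rose with a log2FC of 1.17. AKAP9, a scaffold of the centrosome and Golgi, had 1.29 with an adjusted p of 0.0508, and CEP135 had 1.35. In the DNA damage response and repair list, 18 of 57 members were on the higher side (31.6%) and 1 on the lower. RAD50 of the break-sensing MRN complex rose with 1.13. SMC6, of a complex that resolves joined DNA strands, passed the adjusted p threshold (0.0334) with a log2FC of 0.97. PRKDC, the catalytic subunit of DNA-dependent protein kinase, had 1.44 with an adjusted p of 0.0891.

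RNA export and decay genes held more members on the higher side, with 18 of 68 members higher (26.5%) and 6 lower at an unadjusted p of at most 0.05. ZFC3H1, which holds polyadenylated RNA in the nucleus for decay, rose with a log2FC of 1.07. ZFP36, which brings AU-rich cytokine messages to decay, rose with 1.16. The nonsense decay factor UPF2 had 1.15 with an adjusted p of 0.0514. Among translation factors and tRNA synthetases, 13 of 69 were higher (18.8%) and 4 lower, against 4 higher and 1 lower with the DV200 as a covariate. EIF5B, which joins the ribosomal subunits at the start codon, rose with 1.14, from 512 ± 132.5 to 1125 ± 142 normalized counts (SD, n = 5 each).

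The counts of the nuclear lists were also taken with RNA quality as a covariate and without the samples highest in keratinocyte markers. With the DV200 as a covariate, 4.95% of all genes had an unadjusted p of at most 0.05 with higher values. The list counts were 14 of 56 for centrosome genes, and the shares were 41.3% for chromatin, 23.1% for splicing, 21.7% for histone-modifying enzymes, 21.1% for DNA repair, 20.3% for mitosis and 12.5% for ribosome biogenesis. Without group 1 replicates 1 and 4, an alternative chosen after the data were seen, the shares were 54.0% for chromatin, 30.8% for splicing and 24.3% for mitosis, beside 9.46% of all genes tested. Leaving out any 1 sample gave between 30 and 35 chromatin members and between 33 and 40 splicing members.

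The cytoskeleton list held IQGAP1 and PLEC, the genes with the smallest p-values of all 11200. Among 81 tested actin, plakin and nuclear envelope linker genes, 24 had an unadjusted p of at most 0.05 with higher values in group 2a (29.6%) and 7 with lower values, and in 18 the groups did not overlap with group 2a above (22.2%). The median log2FC of the list was 0.10, as 35 of the 81 members had values under 0. PLEC encodes plectin, which ties intermediate filaments to actin and junctions. Its normalized counts were 37.8, 25.3, 17.3, 29.9 and 25.1 in group 1 and 104, 174, 77.8, 94.7 and 107.5 in group 2a. All 5 group 2a values of PLEC exceeded the highest of group 1 by a wide margin, and its log2FC of 2.04 ± 0.28 (SE; edgeR adjusted p = 0.0334) was the largest among the called genes.

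IQGAP1, a scaffold that links Rac and Cdc42 to actin, had 104, 44.0, 89.3, 66.9 and 72.1 in group 1 and 187, 238, 283, 336 and 256 in group 2a. The groups did not overlap, and the log2FC of IQGAP1 was 1.79 ± 0.24 (SE; edgeR adjusted p = 0.0334). UTRN, utrophin, which anchors actin to the membrane, rose with 1.63. ROCK1, a kinase that drives actomyosin contraction, passed the adjusted p threshold (0.0334) with a log2FC of 0.80, from 493 ± 52.5 to 856 ± 51.1 normalized counts (SD, n = 5 each).

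Protein folding genes were called singly rather than as lists. HSP90AB1, the constitutive cytosolic HSP90, rose with a log2FC of 1.39, from 361 ± 110.7 to 942 ± 173 normalized counts (SD, n = 5 each). Its list of cytosolic chaperones had 9 of 53 members higher (17.0%) and 5 lower at an unadjusted p of at most 0.05. The co-chaperone ST13 had a log2FC of 1.97 with an adjusted p of 0.0501, and the small heat shock protein gene HSPB1 had -1.26 with 0.0841. PDIA3, an endoplasmic disulfide isomerase that also serves MHC class I loading, rose with 1.47. In the endoplasmic reticulum list 9 of 62 members were higher (14.5%) and 3 lower, and SPCS1, of the signal peptidase, had an adjusted p of 0.0399 with a log2FC of -0.69.

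**Figure D3:**
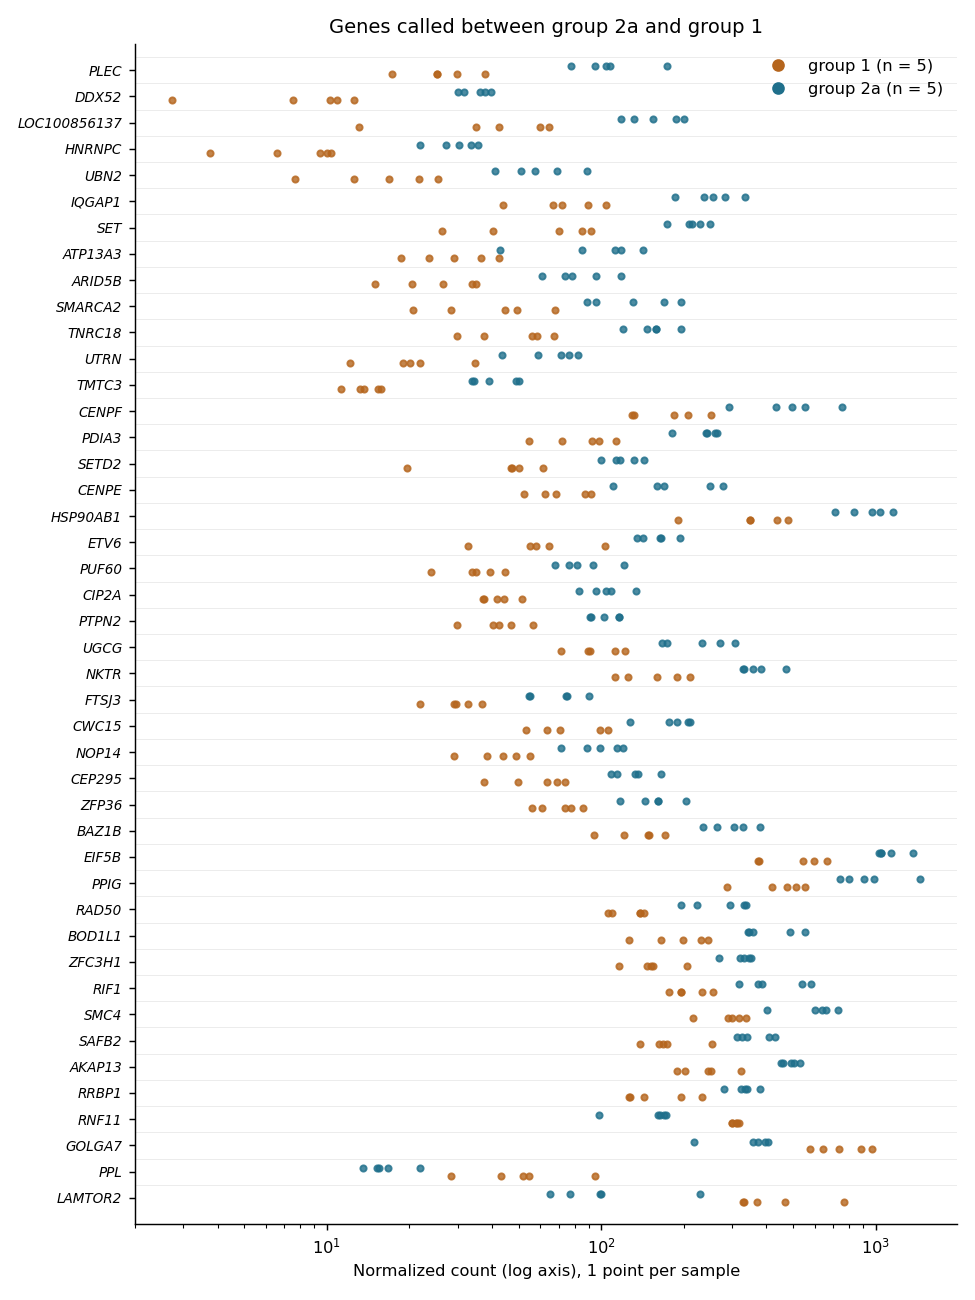
Normalized count of each sample for the 44 called genes, 1 point per sample on a log axis, ordered by log2 fold change with the genes that fell at the bottom. For each gene the 5 points of group 2a and the 5 of group 1 do not overlap, with the narrowest gap for ATP13A3 (42.5 in the highest group 1 sample and 42.7 in the lowest group 2a sample).

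Of the 44 called genes, 33 were in at least 1 list, as were 1986 of the 11200 genes tested. The lists were drawn up with earlier results of these data known, so this count is a description only. Called genes outside the lists that rose were LOC100856137, ATP13A3, TNRC18, TMTC3, ETV6, UGCG, RIF1, SAFB2, AKAP13 and RRBP1. LOC100856137, an uncharacterized protein-coding locus on chromosome 12 from 2460225 to 2462733, had normalized counts of 42.5, 13.1, 64.7, 59.8 and 35.0 in group 1 and 187, 131, 201, 118 and 154 in group 2a (log2FC 1.88 ± 0.34, SE; edgeR adjusted p = 0.0399). ATP13A3, a polyamine transporter, had 42.5, 29.0, 36.4, 23.6 and 18.6 in group 1 and 42.7, 85.5, 118, 112 and 142 in group 2a. Group 2a replicate 1 of ATP13A3 was at the level of the highest group 1 sample, and the log2FC was 1.74 ± 0.34 (SE; edgeR adjusted p = 0.0479).

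The remaining genes that rose outside the lists had log2FC between 1.01 and 1.65. TNRC18 is a chromatin-binding protein (1.65) and ETV6 a transcriptional repressor of the ETS family (1.36). RIF1 controls replication timing and break repair (1.07), and SAFB2 binds the nuclear scaffold and RNA (1.03). TMTC3 is an endoplasmic mannosyltransferase (1.57), UGCG makes glucosylceramide (1.25), and RRBP1 binds ribosomes to the endoplasmic reticulum (1.01). AKAP13 activates RhoA (1.02). PTPN2, a phosphatase that switches off JAK and STAT proteins, rose with 1.27 and was the only called gene of the cytokine receptor list.

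The 4 genes that fell act in vesicle traffic, lysosomal signaling and cell contact. LAMTOR2, a subunit of the Ragulator complex that brings mTORC1 to the lysosome, had normalized counts of 770, 330, 332, 369 and 468 in group 1 and 100.2, 229, 98.9, 77.2 and 64.9 in group 2a. Replicate 2 was far above the other group 2a samples and still below group 1, and the log2FC was -1.98 ± 0.36 (SE; edgeR adjusted p = 0.0399). The LAMTOR2 list of 69 lysosome and mTORC1 genes had 8 members lower (11.6%) and 2 higher at an unadjusted p of at most 0.05, near the background on the lower side. LAMTOR5, of the same complex, had a log2FC of -0.61 with an adjusted p of 0.104.

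GOLGA7, which with a partner enzyme attaches palmitate to Ras proteins at the Golgi, had 575, 882, 737, 646 and 967 normalized counts in group 1 and 405, 396, 218, 373 and 356 in group 2a. The log2FC of GOLGA7 was -1.12 ± 0.20 (SE; edgeR adjusted p = 0.0399). Its list of secretory and endosomal traffic genes was split, with 18 of 104 lower (17.3%) and 13 higher (12.5%). The large golgins GOLGA4 and GOLGB1 had log2FC of 0.96 and 1.15, each with an adjusted p of 0.0501. RNF11, a ubiquitin ligase of endosomes, had 311, 300.5, 300, 313 and 318 in group 1 and 173, 169, 161, 164 and 97.8 in group 2a. The group 1 values of RNF11 lay within a narrow band, and the log2FC was -1.01 ± 0.17 (SE; edgeR adjusted p = 0.0334).

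PPL encodes periplakin of the cornified envelope and desmosomes. Its normalized counts were 52.0, 43.1, 54.7, 95.3 and 28.4 in group 1 and 16.7, 21.9, 15.6, 15.2 and 13.6 in group 2a. The groups did not overlap, and the log2FC of PPL was -1.71 ± 0.33 (SE; edgeR adjusted p = 0.0479). PPL was the only called gene among the keratinocyte markers, although 20 of the 27 tested had an unadjusted p of at most 0.05 with lower values in group 2a (74.1%) and 0 with higher values. The median log2FC of the list was -1.89. KRT15, a keratin of basal cells, had -2.56 (adjusted p = 0.0834), JUP, plakoglobin, -1.72 and NECTIN1 -1.61 in edgeR.

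Keratinocyte content varied widely within the groups. The summed normalized count of 32 keratinocyte genes ran between 1667 and 17880 in group 1 (median 6129) and 718 to 4247 in group 2a (median 2655), and group 1 replicates 1 and 4 had the highest sums. KRT5 and KRT14, which define basal keratinocytes, were above 0 in all 10 samples. KRT5 ran from 227 to 3877 in group 1 and from 11.1 to 679 in group 2a. Without group 1 replicates 1 and 4, 3 of the 27 members were lower at an unadjusted p of at most 0.05 and the median log2FC was -0.71. With the DV200 as a covariate, 4 keratinocyte members were lower and the median was -1.45. The part of keratinocytes in the junction genes described next was not tested.

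Cadherin and catenin junction genes had 11 of 26 members at an unadjusted p of at most 0.05 with lower values in group 2a (42.3%) and 2 with higher values. The median log2FC was -0.64, and 0 members were called by edgeR. GJA1, the gap junction protein connexin 43, had -1.51 (adjusted p = 0.0798), from 248 ± 146 in group 1 to 86.9 ± 24.2 in group 2a normalized counts (SD, n = 5 each). CDH3, P-cadherin, had -1.90. CDH1, E-cadherin, which Langerhans cells share with keratinocytes, had -1.20 with an adjusted p of 0.207, and its ranges of 63.4 to 331 and 46.5 to 194 overlapped. Without group 1 replicates 1 and 4, 5 junction members were lower. With the DV200 as a covariate, 8 were lower (30.8%, beside 3.77% of all genes).

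Stromal markers showed a similar side with fewer members. Fibroblast and matrix genes had 6 of 27 members lower (22.2%) and 0 higher at an unadjusted p of at most 0.05, with POSTN, periostin, at a log2FC of -1.06 (adjusted p = 0.150) and 0 called by edgeR. Smooth muscle and pericyte genes had 5 of 14 lower (35.7%), among them MYH11, smooth muscle myosin, at -1.53 (adjusted p = 0.0806). The first markers of that list differed little. ACTA2 had median normalized counts of 244 in group 1 and 228 in group 2a, and TAGLN 308 and 303. In the coagulation and wound repair list 6 of 21 were lower (28.6%) and 1 higher. F13A1, the A subunit of factor XIII and also a macrophage marker, had -2.39, from 81.9 to 441 normalized counts in group 1 and from 13.6 to 112 in group 2a. The summed fibroblast markers ran from 9353 to 63420 in group 1 and from 13260 to 32020 in group 2a, so that the groups overlapped. For the fibroblast and fibrous matrix list, 1 member was lower with the DV200 as a covariate (3.7%, beside 3.77% of all genes). Without group 1 replicate 2, 3 members were lower and the list median went from -0.64 to -0.18.

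The BCL2 family controls cell death at the mitochondrion. Of 13 members, 3 were lower at an unadjusted p of at most 0.05 (23.1%, beside 8.37% of all genes) and 0 higher. The list median was -0.02, 0 members were called by edgeR, and leaving out 1 sample gave 1 to 3 lower. The lower members were led by the apoptosis initiator BID with a log2FC of -0.81 (edgeR adjusted p = 0.0814). Death receptor apoptosis genes had 2 of 21 higher and 3 lower, with a list median of 0.05. TGFBR2, the type II receptor for TGF-beta, had -0.88 with an adjusted p of 0.0501, in a list of 30 with 3 members lower and 1 higher.

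**Figure D4:**
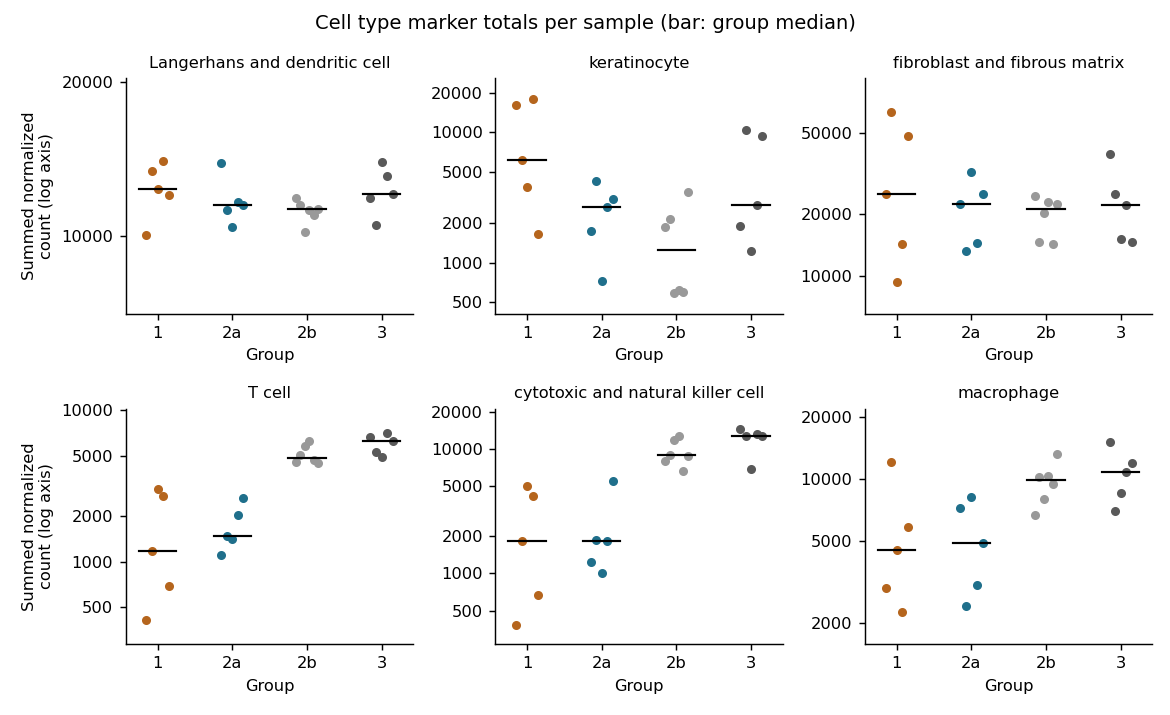
Summed normalized count of 6 marker lists in every sample of the 4 groups, on log axes that differ between panels, with bars at group medians. Groups 1 and 2a overlap in all 6 panels, and T cell and cytotoxic sums are lower in all of their samples than in any sample of groups 2b and 3.

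Langerhans cell markers covered the same range in both groups. The summed count of 28 Langerhans and dendritic cell markers was 10050 to 14020 in group 1 and 10400 to 13870 in group 2a. Of 27 tested, 2 were higher and 3 lower at an unadjusted p of at most 0.05, near the shares among all genes. ITGAX, the integrin CD11c, ran from 266.5 to 1171 and from 295 to 1112. CD1A6, a canine CD1a gene, was at 0 in 9 of the 10 samples, and CD207 was not analysed here. The Langerhans cell identity therefore rests on the other members of the list. TNFRSF11A, the receptor RANK, had a log2FC of 1.97 (adjusted p = 0.0672), and AIF1, the marker Iba-1, had 0.72 (adjusted p = 0.115). On the lower side, the adhesion molecule gene EPCAM had -1.33 (adjusted p = 0.219), at 21.7 to 44.0 normalized counts in group 1 and 1.17 to 24.2 in group 2a, beside the E-cadherin gene CDH1 given above and SPI1 at -0.41.

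Summed lymphocyte markers overlapped between the groups, although stage 2 is defined by lymphocytes elsewhere in the tumor. The T cell sum was 409 to 3008 in group 1 and 1106 to 2627 in group 2a, against 4487 to 6301 in group 2b and 4871 to 7056 in group 3. CD3E, a defining T cell gene, was above 0 in all 5 stage 1 samples, at 2.84 to 394 normalized counts, and at 99.3 to 312 in group 2a. Of 14 T cell genes tested, 1 was higher, IL7R with a log2FC of 0.76 (adjusted p = 0.135), and the list median was -0.01. Cytotoxic and natural killer cell genes had 0 of 13 higher and 1 lower, with PRF1, perforin, at 0 in 9 samples. B and plasma cell genes had 2 of 7 higher and 0 lower with a median log2FC of 0.29, CD38 at 1.78 (adjusted p = 0.184) and IRF4 at 0.61 (adjusted p = 0.267). Their sum was 793 to 1182 in group 1 and 798 to 1811 in group 2a, and MS4A1, a defining B cell gene, was at 0 in all 10 samples.

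Immune pathway lists differed in their shares past the unadjusted threshold, beside 9.54% of all genes higher and 8.37% lower. For MHC class I and peptide loading, 3 of 18 were higher (16.7%) and 0 lower. These were PDIA3, DLA-79 (log2FC 2.26, adjusted p = 0.0816) and B2M, the light chain of class I (0.87, adjusted p = 0.111). For MHC class II, 2 of 15 were higher and 1 lower, DLA-DRA at 1.56 (adjusted p = 0.102), DLA-DMB at 1.80 and CTSS at -0.73. Interferon-stimulated genes had 6 of 42 higher (14.3%) and 1 lower, but a list median of -0.03. TNFSF10, the death ligand TRAIL, had a log2FC of 1.78 with an adjusted p of 0.0539, and its groups did not overlap, at 5.62 to 27.6 and 38.04 to 77.5 normalized counts.

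In the NF-kappaB and TNF receptor list 6 of 35 were higher (17.1%) and 1 lower, led by the adaptors TRAF5 and TRAF3 at 1.61 (adjusted p = 0.108) and 1.24. The median deviation of the NF-kappaB and TNF receptor signaling list did not overlap between the groups, at -0.28 to 0.03 in group 1 and 0.05 to 0.16 in group 2a. The fit with the DV200 as a covariate had 1 of its members higher and 0 lower. JAK2, a cytokine receptor kinase, had 1.32 with an adjusted p of 0.0672, beside the called phosphatase PTPN2. Chemokines and their receptors had 1 of 17 higher and 1 lower. CXCL10, which draws activated T cells, had 2.00 at 0 to 14.2 normalized counts in group 1 and 9.998 to 36.8 in group 2a (adjusted p = 0.182).

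Energy metabolism lists and the proteasome were mixed, beside 9.54% of all genes higher and 8.37% lower. The respiratory chain had 4 of 69 members higher and 6 lower with a median log2FC of 0.00, and NDUFA2 of complex I had -0.53 (adjusted p = 0.0610). Glycolysis had 4 of 26 higher (15.4%) and 2 lower, with the glucose transporter gene SLC2A1 at -0.89 (edgeR adjusted p = 0.142). The proteasome had 6 of 40 higher (15.0%) and 3 lower, with PSMD11, a lid subunit, at 0.72 (adjusted p = 0.0501). The pentose phosphate and NADPH list had 3 of 14 members lower (21.4%) and 0 higher. Its member ME1, malic enzyme, had -1.52 with an edgeR adjusted p of 0.0501. The antioxidant list had 3 of 32 members higher (9.38%) and 4 lower (12.5%). Its members PON3 and NQO1 had -2.94 and -1.41 with edgeR adjusted p of 0.0785 and 0.130.

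The called genes were also read in the lymphocyte-rich areas. Those samples are different tissue areas, and no test was made. Their DV200 was 72.5 to 76.9% in group 2b and 71.2 to 75.8% in group 3, against 64.5 to 71.2% in group 1. The part of RNA quality in the values below was not tested. Of the 40 genes that rose in group 2a, 39 had group 2b means above the group 1 mean, and 39 had group 3 means above it. Among all 11200 genes tested, these numbers were 5322 and 5377. The called genes were chosen for low group 1 values, which serve as the baseline here too, so these counts are a description only. ATP13A3 was the exception in both, with means of 19.8 in group 2b and 20.95 in group 3 against 30.0 in group 1 and 100.1 in group 2a. The mean of PLEC lay between groups 1 and 2a in both, at 58.5 in stage 2 and 34.2 in stage 3 lymphocyte areas, against 111.6 in the tumor cell areas. UTRN had its highest mean in group 2b, 118.9, against 66.5 in group 2a. For the 4 genes that fell, group 2b and group 3 means were all below the group 1 mean. Among all genes, 5871 and 5819 were below it.

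The shares differed by the span of the gene on the chromosome, when all genes were cut into 5 equal classes. Among the longest class, 79079 to 1987600 bases, 14.7% had an unadjusted p of at most 0.05 with higher values in group 2a and 5.40% with lower values. Among the shortest class, 68 to 7429 bases, the shares were 6.43% and 9.86%. Within the longest class, the chromatin list had 18 of 21 members higher (85.7%), the actin list 20 of 37 (54.1%), the centrosome list 12 of 23 (52.2%) and the DNA repair list 9 of 20 (45.0%). Splicing and ribosome biogenesis genes, with median spans of 17487 and 16366 bases, were shorter than the median of 24924 over all genes. In the shortest class, 1 of 13 splicing genes (7.69%) and 4 of 17 ribosome biogenesis genes (23.5%) were higher. Ribosomal protein genes were short, with 70 of 74 in the shortest class, where 16 were lower (22.9%). The part of gene length and RNA quality in these lists was not tested.

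**Figure D5:**
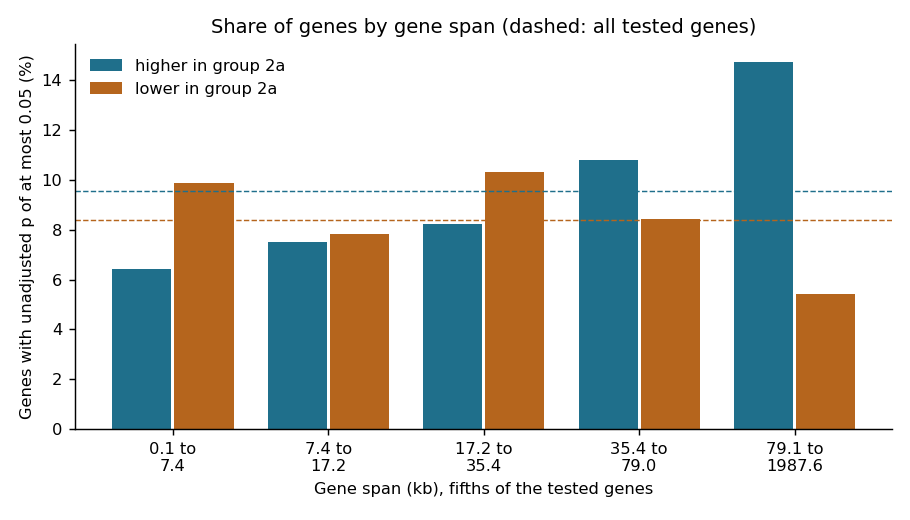
Percentage of genes with an unadjusted p of at most 0.05 in each of 5 equal classes of tested genes by gene span (start to end on the chromosome, in kb), higher (blue) and lower (brown) in group 2a, with dashed lines at the shares over all genes. The higher share goes from 6.43% in the shortest to 14.7% in the longest class.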

How the data were processed

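QuantSeq 3′ RNA-seq of 21 formalin-fixed CCH samples was used, with groups and replicate numbers from the sample labels. Cutadapt, STAR, featureCounts and DESeq2 are named in the submitters' processing notes without versions, and the assembly was UU_Cfam_GSD_1.0. The handling of strand and of reads matching several genes is not given in the sources used here. The authors deposited raw counts per gene and a signal, the normalized count, obtained by dividing raw counts by a size factor for each sample that DESeq2 estimated over all 21. The authors also deposited log2 fold changes and p-values of their own comparisons, which were not used. All 21399 genes matched RefSeq by symbol. A symbol was shared by 122 entries. CD207, CDH5 and TPSAB1 were not analysed here, and 1 pathway list is not reported here.

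Raw counts were tested with the quasi-likelihood F-test of edgeR (version 4.0.16, R 4.3.3) after TMM normalization, over the 10 samples of groups 1 and 2a, for genes that reached 10 counts in 5 or more of them. A gene was called when its Benjamini-Hochberg adjusted p was 0.05 or lower and its log2 fold change 1 or more in size. The common biological coefficient of variation was 0.386. DV200 and total count were compared by 2-sided exact permutation tests. The script was tested on simulated counts. Levels are normalized counts, and a list's deviation in a sample is the median over its members of the log2 difference from their 10-sample mean. Gene span is the distance from start to end in the RefSeq table.

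Members, lists and tests were chosen with earlier results of these data known. Named are every called gene, with all sample values for up to 8 that rose and all that fell, up to 4 members per list with the smallest unadjusted p, and the first members of marker lists. ATRX, MKI67 and SPI1 were named beyond that rule, after their values had been seen. Alternatives were DESeq2 1.42.0, other normalizations and count filters, all 4 groups in 1 fit, a block for the replicate number, a covariate for DV200, no fold threshold and leaving out each sample. Leaving out the 2 group 1 samples highest in keratinocyte markers, and leaving out single samples for DV200 and total count, were added after the data were seen. The same number in 2 groups stands for different dogs, and p-values measure the spread between dogs. Depth was 2113393 to 3559404 counts per sample, and no molecular identifiers are named.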

Additional observations from a re-analysis of the deposited data

Results flagged for a closer look

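In 13 of 232 groups of 5 samples, 1 sample lay far from the other 4, with a gap of more than 0.71 of the group's whole range (Dixon's criterion). Chance alone gives about 1 in 20 such groups.

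Among the called genes, 4 group 2a values stood out. For GOLGA7 (gap ratio 0.742) replicate 3 was lowest at 217.7 normalized counts, against 356.4 to 404.5 in the others. For LAMTOR2 (0.785) replicate 2 was highest at 229.2, against 64.9 to 100.2. For PDIA3 (0.713) replicate 1 was lowest at 181.8, against 240.7 to 264.4. For RNF11 (0.846) replicate 5 was lowest at 97.8, against 161 to 173. The summed markers of cytotoxic and natural killer cells in group 2a (0.812) were highest in replicate 5 at 5525, against 1013 to 1861.

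The other 8 were list deviations, the median over a list's members of the log2 difference from their 10-sample mean. In group 2a, replicate 1 was lowest for mitosis (gap ratio 0.876, deviation -0.33 against 0.32 to 0.41) and for DNA replication (0.755, -0.33 against 0.14 to 0.30). Replicate 2 of group 2a was lowest for interferon-stimulated genes (0.793, -0.30 against 0.19 to 0.32). Replicate 3 of group 2a was lowest for cholesterol synthesis and transport (0.785, -0.33 against 0.08 to 0.20), and replicate 4 for the proteasome (0.725, -0.14 against 0.03 to 0.09). In group 1, replicate 1 was lowest for Langerhans and dendritic cell markers (0.807, -0.60 against 0.04 to 0.19). Replicate 2 of group 1 was highest for macrophage markers (0.728, 1.58 against -0.49 to 0.07) and lowest for mRNA export and decay (0.752, -0.34 against -0.06 to 0.03).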

How the results depend on the processing

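The number of called genes depended strongly on the test and the samples. For 40 genes higher and 4 lower in edgeR, DESeq2 called 186 and 78, all 4 groups in 1 fit 147 and 37, total count without factors 85 and 6, and a count of at least 10 in every sample 65 and 12. Without a fold threshold 51 and 8 were called. With the DV200 as a covariate edgeR called 0 in either direction (976 genes at an unadjusted p of at most 0.05), and without the 2 group 1 samples highest in keratinocyte markers also 0 (1910 at that p). Leaving out 1 sample gave 0 to 68 genes higher and 0 to 8 lower. The log2 fold changes of the 44 called genes reversed in 0 of 877 alternatives, and 524 of these missed the threshold. Groups 1 and 2a did not overlap for any of the 44, so most alternatives could hardly reverse a sign. The count of 0 reversals therefore says little about stability. Of 1119 list medians under alternatives, 21 in 18 lists moved by more than the spread between samples. The difference in total count, -465741, ran from -581340 to -296207 when 1 sample was left out. It passed 0.05 in the exact permutation test without group 1 replicate 5 (-561372, p = 0.0397) or without group 2a replicate 1 (-581340, p = 0.0159). The cause of these changes was not tested.

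With the replicate number as a block, edgeR called 0 genes in either direction (1644 at an unadjusted p of at most 0.05). The correlation of deviations between same-numbered samples was 0.01, -0.30, 0.07, 0.12 and -0.18, so the numbers, which stand for different dogs, do not pair the samples. Transcript and coding length were not used because only the gene span was at hand.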

Other observations

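Long noncoding RNAs were more often above 0 than protein-coding genes. Of 421 tested, 252 had a log2 fold change above 0 (59.9%), against 48.2% of 10714 protein-coding genes, with median log2 fold changes of 0.15 and -0.02. At an unadjusted p of at most 0.05, 38 were higher in group 2a and 12 lower, and 0 were called by edgeR. No test compared the 2 classes. The share above 0 also differed by count level, from 53.3% in the lowest to 41.3% in the highest of 5 equal classes of all genes. The part of count level in the values of long noncoding RNAs was not tested.

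By chromosome, chromosome 13 had a median log2 fold change of 0.15 over 199 tested genes. At an unadjusted p of at most 0.05, 36 were higher (18.1%) and 11 lower (5.53%). Chromosome 23 had -0.20 over 190 genes, with 6 higher (3.16%) and 24 lower (12.6%). Chromosome 37 had 0.14 over 131 genes, with 16 higher (12.2%) and 4 lower (3.05%). The shares of all genes were 9.54% and 8.37%. These chromosomes were picked for medians largest in size, and chromosome 16 followed with -0.12. Each sample is the tumor of another dog, and single chromosomes were not tested against each other.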
